A study of Homo sapiens with 6 samples.

Results

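The genes described are 10 genes of cellular iron uptake, storage and sensing, TFRC, SLC11A2, STEAP3, FTH1, FTL, SLC40A1, ACO1, IREB2, SLC25A37 and NCOA4, out of 31142 genes in the deposited table. They were taken by symbol, and each symbol was listed under 1 identifier. RNA was sequenced from SKM-1 cells, a human leukemia line, that had been stably transduced with a lentivirus carrying FLAG-tagged U2AF1, a subunit of the factor that recognises the 3' splice site. The S34F group (3 libraries) expressed the S34F mutant of U2AF1, and the WT group (3 libraries) was labelled wild type. RNA was taken after 96 h in all 6. The WT titles also carry a negative-control prefix and the methods speak of a vehicle control, so whether these cells carried an exogenous wild-type U2AF1 is not settled by the labels. The cells keep their own U2AF1 genes, expression came from a lentiviral vector in 1 cell line, and no source used here says how many transduced populations were made. The values are FPKM, fragment counts scaled for transcript length and library size, so levels of different genes can be set side by side.

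Iron bound to transferrin enters a cell through the transferrin receptor TFRC, is reduced in the endosome by STEAP3 and leaves it through the transporter SLC11A2 (DMT1). It is then stored in ferritin, a shell built of FTH1 heavy and FTL light chains, carried into mitochondria by SLC25A37 (mitoferrin 1), or exported by SLC40A1 (ferroportin). NCOA4 delivers ferritin to the lysosome for iron release. ACO1 (IRP1) and IREB2 (IRP2) are the iron regulatory proteins, which bind hairpins called iron-responsive elements when iron is low, blocking translation where the hairpin is in the 5' UTR and protecting the mRNA from decay where it is in the 3' UTR. Erythroid precursors, which make hemoglobin, take up far more iron than most other cells.

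The elements that tie these genes together are shown because the 2 sensors bind hairpins of this kind. GENCODE 29 transcripts (GRCh38) were searched on the RNA strand for a C, 5 bases, the loop CAGTGN and 5 bases that pair with the 5 before the loop, with G-T pairs allowed. The pattern lay in a UTR of 4 of the 10 members and of 0.809% of 19652 protein-coding genes. The members were chosen as iron genes and the pattern as that of an iron element, so these shares are not a test. Each line gives 29 bases, with the 6-base loop in capitals.
FTH1, 5' UTR, chr11:61967574-61967602, minus strand: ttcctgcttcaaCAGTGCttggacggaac
FTL, 5' UTR, chr19:48965335-48965363, plus strand: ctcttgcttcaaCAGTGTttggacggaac
SLC40A1, 5' UTR, chr2:189580661-189580689, minus strand: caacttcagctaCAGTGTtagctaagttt
TFRC, 3' UTR, chr3:196050979-196051007, minus strand: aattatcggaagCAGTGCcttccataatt
TFRC, 3' UTR, chr3:196050575-196050603, minus strand: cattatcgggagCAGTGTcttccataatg
TFRC, 3' UTR, chr3:196050510-196050538, minus strand: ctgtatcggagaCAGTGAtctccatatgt
TFRC, 3' UTR, chr3:196050463-196050491, minus strand: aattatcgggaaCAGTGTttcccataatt
Of the transcripts the deposited table lists for each gene, the element was in 5 of 7 for FTH1, 1 of 1 for FTL, 3 of 6 for SLC40A1 and 3 of 15 for TFRC. FPKM are per gene, so forms with and without the element were not separated. Elements in the genes shown that this strict pattern does not match would be missed. For the other 6 members the search says only that these letters are not in the UTRs searched. SLC11A2, for example, is known to have a 3' UTR element in some of its mRNAs, which this strict pattern does not match.

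The summed FPKM ran from 335673 to 353709 per library, and the value of 1 fragment in single-exon genes gave approximate depths of 21.1 to 26.5 M fragments. U2AF1 had 9.18 to 9.48 FPKM in S34F and 7.65 to 8.70 in WT, values that do not separate the mutant from the wild-type form. S34F replicate 3 stood apart from its group, with correlations of 0.953 and 0.954 with S34F replicates 1 and 2 against 0.985 between those, over the log2(FPKM + 1) values of the 10942 genes with a mean of at least 1 FPKM. WT replicate 3 stood apart less, at 0.976 and 0.975 against 0.986. Members whose values rest on these libraries are given with and without them. Of 12 listed erythroid genes all had a mean of at least 1 FPKM, summing to 11823 to 13675 FPKM in S34F and 11430 to 12641 in WT, led by HBE1 at 5461. Of 12 listed monocytic and myeloid genes 11 had a row and 3 reached 1 FPKM (LYZ, SPI1 and CD33), with sums of 22.6 to 35.4 FPKM in S34F and 31.6 to 34.6 in WT, while MPO, FCN1, S100A8, CSF1R and CD86 stayed under 0.1 FPKM in every library. SKM-1 is known as a line of monocytic character, and these markers go against that identity, so the name is used here as the labels give it. The part of this erythroid transcript content in the iron gene levels was not tested.

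The level of the 10 members spanned a wide range. FTL averaged 6381 FPKM over the 6 libraries and ranked 5 among the 10942 genes tested, and FTH1 averaged 558.4 FPKM and ranked 76. TFRC averaged 78.7 FPKM and NCOA4 72.9, at ranks 538 and 577. The other members were lower, with mean FPKM of 13.8 for SLC25A37, 7.08 for STEAP3, 4.66 for SLC40A1, 4.63 for ACO1, 3.19 for IREB2 and 2.79 for SLC11A2. In this order the library ranges overlapped between TFRC and NCOA4, between SLC40A1 and ACO1 and between IREB2 and SLC11A2. The other neighbours did not overlap, with gaps from 11.4-fold between FTL and FTH1 to 1.46-fold between ACO1 and IREB2.

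**Figure D1:**
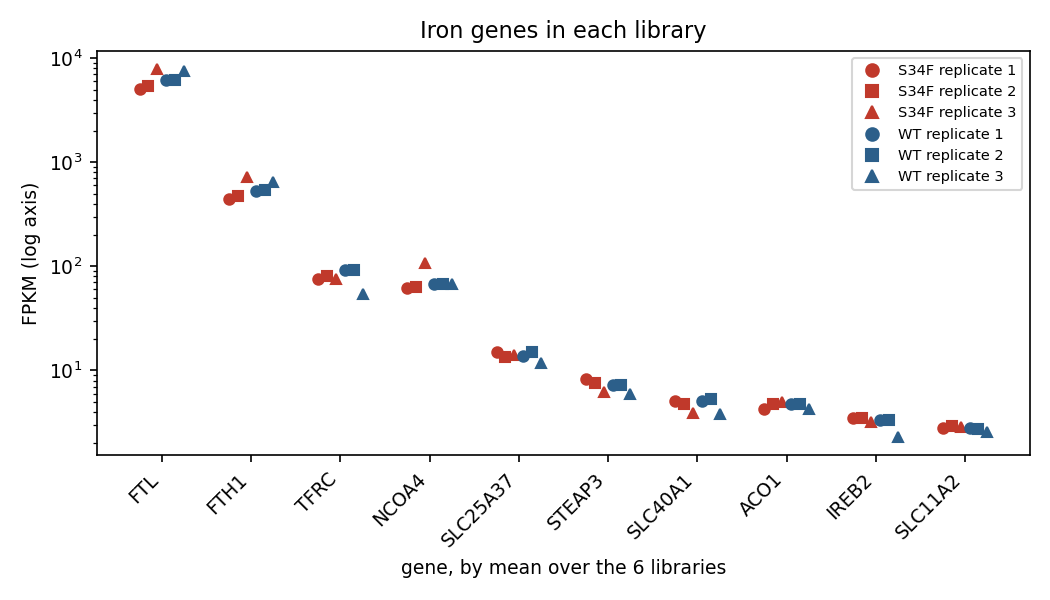
FPKM of each of the 10 iron genes on a log axis, 1 point per library, with S34F in red, WT in blue and the marker shape giving the replicate number. The genes span from FTL at 5106 to 7849 FPKM down to SLC11A2 at 2.56 to 2.92, and TFRC and NCOA4, SLC40A1 and ACO1, and IREB2 and SLC11A2 overlap.

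The question put to these libraries was whether S34F mutant U2AF1 shifts the genes that bring in, store and sense iron. Of the 10 members, 0 were called different between S34F and WT by the study's own limits, more than 1.5-fold with p under 0.05 before adjustment, here from limma on log2(FPKM + 1), and the same limits called 0.585% of the 10942 genes tested. With the replicate number as a block, limma called 0 members and 0.795% of all genes. By an unadjusted p under 0.05 alone, again 0 of the 10 passed, against 2.39% of all genes. After Benjamini-Hochberg adjustment over all genes tested, limma gave 0 genes with an adjusted p under 0.05 among 10942, of which 262 had an unadjusted p under 0.05. The groups overlapped in all 10 members, while they did not overlap in 7.38% of all genes. The median difference over the members, S34F minus WT, was 0.05 on the log2 scale, against 0.01 over all genes tested, with 6 members higher and 4 lower. The RNA samples are described as independent and in triplicate, but the sources do not say whether the cultures were separate, so p-values measure only the spread between these samples, which may be technical, and in bulk RNA fewer cells of a type cannot be told apart from less RNA per cell.

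TFRC (ENSG00000072274, chr3:196027183-196082189, minus strand), the transferrin receptor, had 76.4, 81.2 and 75.3 FPKM in S34F replicates 1, 2 and 3 and 92.5, 92.3 and 54.8 FPKM in WT replicates 1, 2 and 3. The S34F values lay together, below WT replicates 1 and 2 and above WT replicate 3, which was the lowest of all. The group means were 77.6 ± 3.12 FPKM in S34F and 79.9 ± 21.7 in WT (SD, n = 3 each), a difference smaller than the spread of the WT libraries. The log2 difference was -0.0017 with a 95% interval from -0.50 to 0.49 (limma unadjusted p = 0.994, adjusted p = 0.9999; exact two-sided permutation p = 1). With 3 against 3 libraries that exact test cannot go below 0.1.

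STEAP3 (ENSG00000115107, chr2:119223831-119265652, plus strand), the endosomal ferrireductase, had 8.25, 7.59 and 6.23 FPKM in S34F and 7.24, 7.22 and 5.92 FPKM in WT, in replicate order. The lowest value of each group was that of replicate 3, and the groups overlapped. The log2 difference was 0.10 (95% interval -0.23 to 0.42, limma unadjusted p = 0.499). SLC11A2 (ENSG00000110911, chr12:50979401-51028566, minus strand), which passes ferrous iron out of the endosome, had 2.77, 2.92 and 2.89 FPKM in S34F and 2.81, 2.76 and 2.56 FPKM in WT. It was the steadiest member, with a standard deviation over the 6 libraries of 0.05 in log2(FPKM + 1), smaller than that of all but 1.53% of the genes tested. At so low a level the added 1 shrinks the spread, so that share can reflect level as well as steadiness. In FPKM its highest library was 1.14-fold its lowest. Its log2 difference was 0.06 (95% interval -0.17 to 0.28, limma unadjusted p = 0.558), an interval that stays within the 1.5-fold limit on both sides.

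FTL (ENSG00000087086, chr19:48965301-48966878, plus strand), the ferritin light chain, had 5106, 5430 and 7849 FPKM in S34F and 6215, 6199 and 7487 FPKM in WT. S34F replicates 1 and 2 were the lowest libraries and S34F replicate 3 the highest, so the WT values fell between them. The means were 6128 ± 1499 FPKM in S34F and 6634 ± 739.1 in WT (SD, n = 3 each), and the log2 difference was -0.14 (95% interval -0.55 to 0.28, limma unadjusted p = 0.463, exact permutation p = 0.6).

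FTH1 (ENSG00000167996, chr11:61959718-61967660, minus strand), the heavy chain with the ferroxidase activity, had 444.2, 470.9 and 720.3 FPKM in S34F and 531.0, 539.0 and 644.9 FPKM in WT. The libraries stood in nearly the same order as for FTL, with S34F replicates 1 and 2 lowest and S34F replicate 3 highest. Its log2 difference was -0.10 (95% interval -0.56 to 0.37, limma unadjusted p = 0.635, exact permutation p = 0.6). Ferritin genes have many processed pseudogenes whose reads can be shared with them. The 18 FTH1 pseudogenes in the table summed to 34.6 to 70.8 FPKM per library, or 7.78% to 9.83% of FTH1, and the 5 FTL pseudogenes to 5.93 to 10.8 FPKM, or 0.0956% to 0.137% of FTL. FTH1 also overlaps BEST1 on the opposite strand, at 3.17 to 5.28 FPKM, and whether the counting used strand is not given in the sources used here.

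The ratio of FTH1 to FTL hardly moved. In FPKM it was 0.0870, 0.0867 and 0.0918 in S34F replicates 1, 2 and 3 and 0.0854, 0.0869 and 0.0861 in WT. The 2 mRNAs thus kept their proportion while each varied 1.62-fold and 1.54-fold, FTH1 and FTL respectively, between its lowest and highest library. Ferritin protein was not measured in these libraries. The ratios overlapped between the groups, with a log2 difference of 0.04 and an exact two-sided permutation p of 0.2. Together the 2 genes made up 1.62% to 2.55% of the summed FPKM of a library.

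NCOA4 (ENSG00000266412, chr10:46005088-46030714, minus strand), the ferritin cargo receptor of autophagy, had 62.5, 62.7 and 108.7 FPKM in S34F and 67.9, 67.4 and 68.2 FPKM in WT. A single library, S34F replicate 3, stood high, while the other S34F libraries lay below all WT libraries. The means of 77.9 ± 26.6 FPKM in S34F and 67.8 ± 0.388 in WT (SD, n = 3 each) therefore differed in the direction set by that library. The log2 difference was 0.15 (95% interval -0.37 to 0.67, limma unadjusted p = 0.517, exact permutation p = 1), and without S34F replicate 3 it was -0.11 (limma unadjusted p = 0.131). NCOA4 had the largest spread of the 10, with a standard deviation of 0.30 over the 6 libraries on the log2 scale. The genes tested whose centred values were most like those of NCOA4 over the 6 libraries were FAM91A1, KDM6A and COPA, with root mean square differences of 0.034, 0.037 and 0.039 on the log2 scale against a median of 0.31 over 10941 genes. COPA, a subunit of the COPI vesicle coat, had 26.85, 26.6 and 47.85 FPKM in S34F and 28.85, 29.6 and 31.4 FPKM in WT. The 3 genes were picked by their likeness to NCOA4 over these same libraries. Their small differences and their shared high library, S34F replicate 3, therefore follow from that choice. The 1 added to FPKM also shrinks fold changes of low genes such as FAM91A1, at 1.31 to 2.82 FPKM.

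SLC25A37 (ENSG00000147454, chr8:23528805-23575463, plus strand), which supplies mitochondria with iron for heme and iron-sulfur clusters, had 14.9, 13.6 and 13.9 FPKM in S34F and 13.8, 15.1 and 11.8 FPKM in WT. WT replicate 3 was lowest, and the log2 difference was 0.06 (95% interval -0.22 to 0.35, limma unadjusted p = 0.621). SLC40A1 (ENSG00000138449, chr2:189560579-189583758, minus strand), the iron exporter, had 5.13, 4.71 and 3.91 FPKM in S34F and 5.05, 5.33 and 3.82 FPKM in WT. Both replicate 3 libraries were lowest in their group, and the log2 difference was -0.03 (95% interval -0.39 to 0.32, limma unadjusted p = 0.826).

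The sensor mRNAs stayed low and close. ACO1 (ENSG00000122729, chr9:32384603-32454769, plus strand), which is a cytosolic aconitase when it carries an iron-sulfur cluster and an RNA-binding protein when it does not, had 4.31, 4.80 and 4.99 FPKM in S34F and 4.72, 4.74 and 4.24 FPKM in WT. The groups overlapped almost fully, with a log2 difference of 0.03 (95% interval -0.21 to 0.28, limma unadjusted p = 0.757). IREB2 (ENSG00000136381, chr15:78437431-78501456, plus strand), the sensor that is degraded when iron is plentiful, had 3.51, 3.47 and 3.19 FPKM in S34F and 3.33, 3.32 and 2.29 FPKM in WT. WT replicate 3 was again the lowest library, and the log2 difference was 0.15 (95% interval -0.17 to 0.48, limma unadjusted p = 0.306). Without WT replicate 3 it was 0.02 (limma unadjusted p = 0.836). IREB2 and NCOA4, both at 0.15, had the largest differences of the 10 members over all 6 libraries, each resting on 1 library, and neither passed the threshold.

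**Figure D2:**
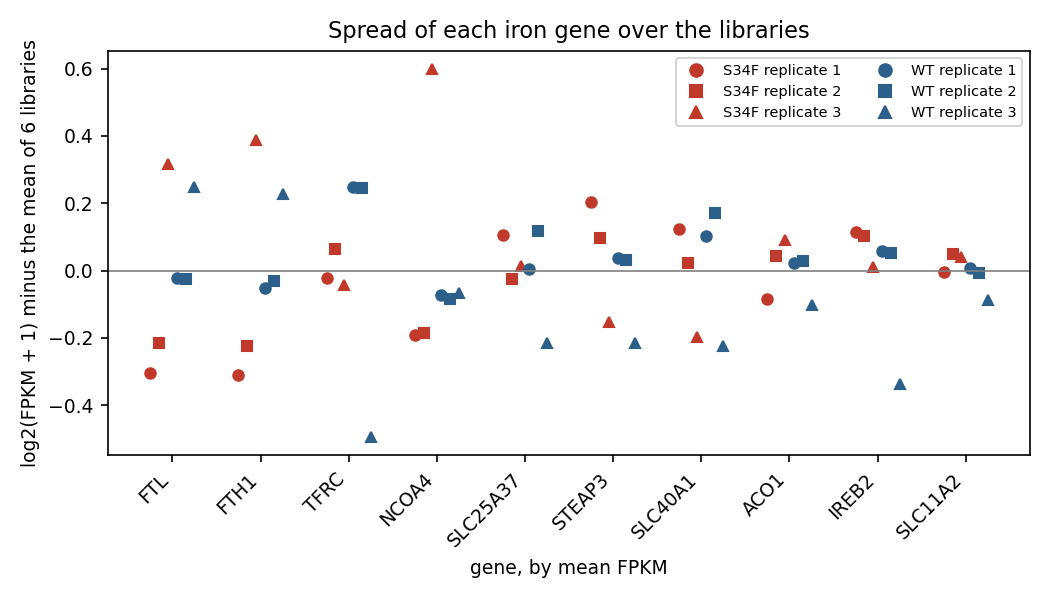
log2(FPKM + 1) of each iron gene minus its mean over the 6 libraries, 1 point per library, S34F in red and WT in blue, marker shape for the replicate number. The triangles of replicate 3 sit at the top for FTL and FTH1 in both groups, at the top for NCOA4 in S34F, and at the bottom for TFRC and IREB2 in WT.

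Several members split by replicate number. In both groups replicate 3 lay above replicates 1 and 2 for 3 members, FTL, FTH1 and NCOA4, and below both for 4 members, TFRC, STEAP3, SLC40A1 and IREB2. Among all genes tested, 21.3% were above in both groups and 29.4% below in both, so many other genes moved with replicate 3 too. In size, S34F replicate 3 held 1.49-fold the mean of S34F replicates 1 and 2 for FTL, 1.57-fold for FTH1 and 1.74-fold for NCOA4, and 18.4% of all genes were at least 1.4-fold higher there. WT replicate 3 held 1.21-fold the mean of WT replicates 1 and 2 for both FTL and FTH1 but 1.01-fold for NCOA4. TFRC, at 0.956 of that mean in S34F replicate 3, was in WT replicate 3 at 0.593 of that mean, and 1.51% of the genes tested fell lower relative to their WT replicates 1 and 2. IREB2 was at 0.690 and SLC40A1 at 0.736. The part of culture state, depth or handling in these values was not tested, and no label names a batch.

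The receptor and heavy chain mRNAs were set against each other after their values were seen. The ratio of TFRC to FTH1 in FPKM was 0.172, 0.172 and 0.105 in S34F replicates 1, 2 and 3 and 0.174, 0.171 and 0.0850 in WT. The 4 libraries numbered 1 and 2 thus shared nearly 1 value across the groups, and both libraries numbered 3 lay far below it. The log2 difference between the groups was 0.10 with an exact two-sided permutation p of 0.8.

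**Figure D3:**
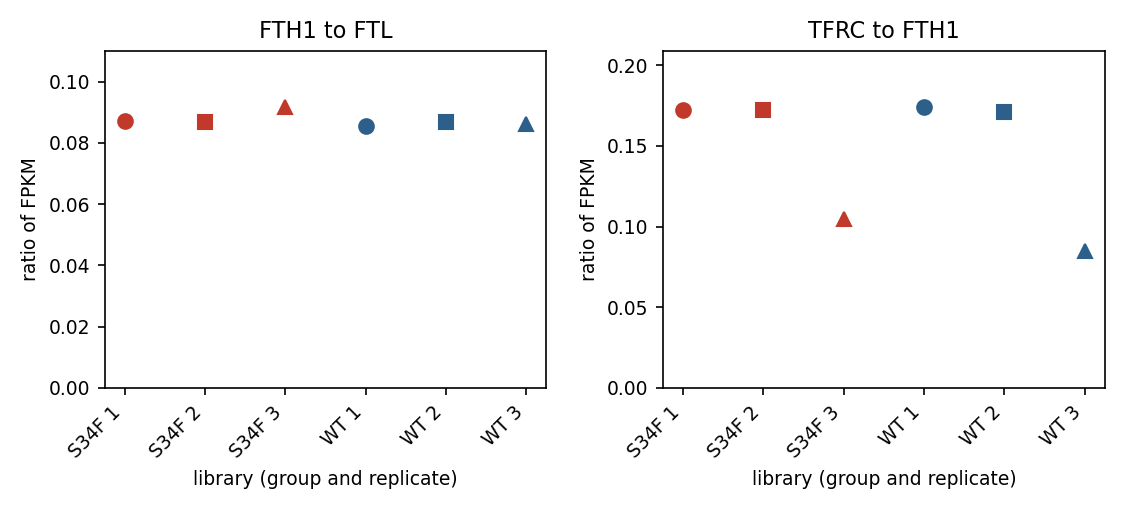
Ratio of FTH1 to FTL FPKM (left) and of TFRC to FTH1 FPKM (right) in each of the 6 libraries, S34F in red and WT in blue. The left ratio stays between 0.0854 and 0.0918, and the right one is 0.171 to 0.174 in the replicates 1 and 2 of both groups and 0.105 and 0.0850 in the replicates 3.

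Without both replicate 3 libraries the picture of the ferritin and receptor mRNAs changed. FTL, at 5106 and 5430 FPKM in S34F against 6215 and 6199 in WT, then had a log2 difference of -0.24 (standard error 0.04, limma unadjusted p = 0.00541, adjusted p = 0.153). FTH1, at 444.2 and 470.9 against 531.0 and 539.0 FPKM, had -0.23 (standard error 0.04, limma unadjusted p = 0.0073, adjusted p = 0.163). TFRC, at 76.4 and 81.2 against 92.5 and 92.3 FPKM, had -0.23 (standard error 0.05, limma unadjusted p = 0.0092, adjusted p = 0.174). NCOA4 had -0.11 (standard error 0.04, limma unadjusted p = 0.0448, adjusted p = 0.286). In these 4 libraries mRNAs of the receptor, both ferritin chains and the ferritin cargo receptor were thus all lower in S34F. They are named together because they were the members with an unadjusted p under 0.05 (limma) in this fit. Each difference was less than 1.5-fold, and 0 of the 10 members passed the study's limits, against 1.71% of all genes. The same fit gave an unadjusted p under 0.05 for 4 of 10 members and for 16.9% of 10897 genes, and 51.5% of genes had groups that did not overlap, against 6 of the 10 members. S34F was the lower group in 26.5% of genes and 4 members, and the higher in 25% of genes and 2 members, IREB2 and STEAP3. With 2 libraries a group, these counts describe the libraries. Approximate depth also followed the group, at 21.1 and 23.7 M fragments in S34F replicates 1 and 2 and 26.5 M in each of WT replicates 1 and 2. Group and depth cannot be told apart in this fit, and the part of depth was not tested.

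Each library numbered 3 bore on different members. Without S34F replicate 3 alone, FTL had a log2 difference of -0.33 (limma unadjusted p = 0.0199) and FTH1 of -0.32 (limma unadjusted p = 0.0265), with 10.6% of genes at an unadjusted p under 0.05 in that fit. Without WT replicate 3 alone, TFRC had -0.25 (limma unadjusted p = 0.0387), with 3.18% of genes at that limit. Adjusted p in these fits were between 0.367 and 0.9998 for the 3 genes (limma).

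**Figure D4:**
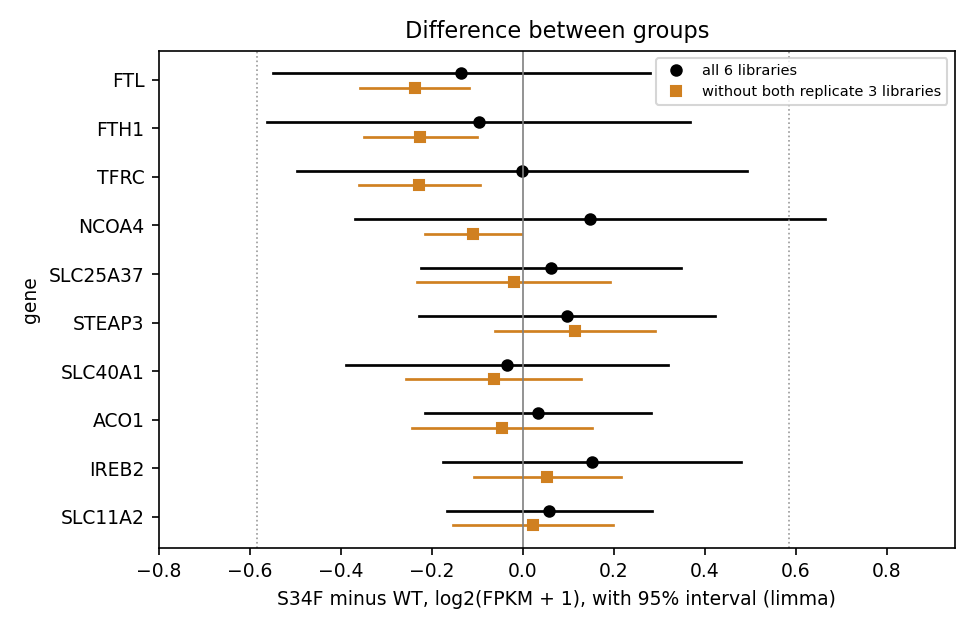
Difference S34F minus WT in log2(FPKM + 1) for each iron gene with its 95% interval from limma, over all 6 libraries (black circles) and without both replicate 3 libraries (orange squares). Dotted lines mark a 1.5-fold change. All 10 black intervals cross 0, and the orange intervals of FTL, FTH1, TFRC and NCOA4 lie below it.

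The wider machinery of iron was read from a list of 85 genes other than the 10 members. Of these, 64 had a mean of at least 1 FPKM, 36 of them higher in S34F and 28 lower, with a median log2 difference of 0.02. None passed the study's limits (0 of 64, against 0.585% of all genes), and 3, or 4.69%, had an unadjusted p under 0.05 from limma against 2.39% of all genes, each with an adjusted p of 0.9999. Groups did not overlap in 9 of the 64, or 14.1%, against 7.38% of all genes. The list was drawn up with earlier results of these data known, so these shares are not a test. In simulated data 5.055% of unchanged genes had an unadjusted p under 0.05 (limma), more than the 4.69% here.

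Among 15 other uptake genes 8 were tested, and 2 had an unadjusted p under 0.05 (2.39% of all genes). TFR2, the second transferrin receptor, which is known from liver and erythroid cells, had 12.7, 11.7 and 9.30 FPKM in S34F and 14.2, 17.3 and 13.2 FPKM in WT, with S34F lower in every library. Its log2 difference was -0.38 (standard error 0.15, limma unadjusted p = 0.0446, exact permutation p = 0.1). It was -0.26 without S34F replicate 3 (limma unadjusted p = 0.0951) and -0.46 without WT replicate 3 (limma unadjusted p = 0.0404, adjusted p = 0.9998). SLC39A8 (ZIP8), a transporter of zinc, manganese and iron not bound to transferrin, had 8.17, 8.19 and 11.7 FPKM in S34F and 6.86, 7.11 and 6.57 FPKM in WT, with S34F higher in every library. Its log2 difference was 0.38 (standard error 0.15, limma unadjusted p = 0.0402, exact permutation p = 0.1). It was 0.23 without S34F replicate 3, the highest library (limma unadjusted p = 0.03), and 0.36 without WT replicate 3 (limma unadjusted p = 0.0985). SNX3, a sorting nexin that recycles TFRC, was the most abundant of these genes, at 49.5 to 85.0 FPKM, and PICALM, an adaptor of clathrin-mediated uptake, had 10.1 to 13.1 FPKM. Both overlapped between the groups.

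The mRNAs of the iron chaperones that load ferritin were abundant. PCBP1 had 187.7 to 218.1 FPKM and PCBP2 38.4 to 45.2, and 0 of the 8 tested genes among 10 storage and chaperone genes had an unadjusted p under 0.05 (limma; 2.39% of all genes) or groups that did not overlap (7.38% of all genes). BOLA2B, at 32.9 to 39.2 FPKM, has a near-identical copy, BOLA2, so the split between them is uncertain. Of 13 genes of export and systemic control 5 were tested. HEPH, the membrane ferroxidase that works beside ferroportin, had 18.9, 19.0 and 19.3 FPKM in S34F and 22.7, 22.9 and 20.9 FPKM in WT. S34F was thus lower without overlap, at a log2 difference of -0.20 (limma unadjusted p = 0.0699). It was -0.21 without S34F replicate 3 (limma unadjusted p = 0.0409, adjusted p = 0.442). Without WT replicate 3 it was -0.24 (limma unadjusted p = 0.0431, adjusted p = 0.9998). In those fits 10.6% and 3.18% of all genes had an unadjusted p under 0.05. GDF15 had 40.0 to 49.7 FPKM and HJV 3.23 to 5.23. HAMP, which encodes hepcidin, the hormone that removes ferroportin from the membrane, stayed at 0.601 to 1.09 FPKM, and the erythroid hormone gene ERFE at 0.268 to 0.535.

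All 10 genes of the sensing list, which holds the IRP2 ligase and known or proposed IRP targets, were tested and 0 had an unadjusted p under 0.05 (limma; 2.39% of all genes). Groups did not overlap in 2 of the 10, RBX1 and CDC14A, both higher in S34F (7.38% of all genes). Among the 10 ALAS2, the erythroid enzyme that starts heme synthesis, had a mean of 339 FPKM and RBX1, a ubiquitin ligase subunit, 17.7 FPKM. Of 29 genes of mitochondrial iron handling and iron-sulfur assembly, all were tested, 1 had an unadjusted p under 0.05 (2.39% of all genes) and 4, ABCB8, IBA57, NFU1 and TMEM14C, had groups that did not overlap (7.38% of all genes). The gene that passed was TMEM14C, which carries a heme precursor across the inner mitochondrial membrane, at 158.4, 158.9 and 158.8 FPKM in S34F and 225.6, 236.1 and 163.1 FPKM in WT. The S34F libraries lay within 1 FPKM of each other, WT replicate 3 was close to them, and the log2 difference was -0.37 (standard error 0.15, limma unadjusted p = 0.0441, exact permutation p = 0.1). It was again -0.37 without S34F replicate 3 (limma unadjusted p = 0.0763) and -0.54 without WT replicate 3 (limma unadjusted p = 0.00107, adjusted p = 0.722). FDXR and CIAO2B, next in level, averaged 75.9 and 46.6 FPKM. A list of 8 genes of heme recycling held heme oxygenases, biliverdin reductases and genes that scavenge or move heme. Of these 4 were tested and 0 had an unadjusted p under 0.05 (limma, 2.39% of all genes). BLVRB, BLVRA and HMOX2 had means of 177.9, 13.2 and 13.2 FPKM. HMOX1, the inducible heme oxygenase, stayed between 0 and 0.0555 FPKM.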

How the data were processed

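The authors deposited 1 table with FPKM per gene for 6 libraries. The submitters' processing notes name StringTie and edgeR. The aligner, genome build and annotation are not given in the sources used here. The table's fold changes, p-values and q-values are the authors' own comparison and were not used. No value above 0 was an exact whole number, so FPKM were analysed as deposited, and 0 columns of per-sample values were left out.

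FPKM were turned into log2(FPKM + 1), which understates changes of low genes, and genes with a mean of at least 1 FPKM were kept (10942 of 31142). S34F and WT were compared with limma 3.58.1 in R 4.3.3 (empirical Bayes with a mean-variance trend), adjusted by Benjamini-Hochberg over all genes tested. All 10 members passed that filter. Named genes were all members, genes of the wider list with an unadjusted p under 0.05, the 3 most abundant of each sublist, and the 3 genes most like the most variable member. A gene that this rule takes in is not reported here. Any others were chosen after their values were seen. The members and lists were chosen with earlier results of these data known. GENCODE 29 (GRCh38) gave the coordinates and elements and matched 31002 identifiers, and Python 3.11.15 was used.

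Deviations from the group mean correlated at 0.212, 0.174 and 0.380 between same-numbered libraries and at 0.197 and 0.134 between libraries numbered 1 and 2 across groups. Between a library numbered 3 and one numbered 1 or 2 across groups the correlations were -0.295 to -0.205. Deviations within a group cancel for each gene, so negative values there follow on average from the 0.380 and add no evidence of their own. The correlations set the libraries numbered 3 apart, but do not tell how those numbered 1 and 2 pair. The numbers were still used as a replicate block, in a fit run beside the main one. In simulated data limma recovered 189 of 200 genes changed by 1 log2 unit at an unadjusted p under 0.05, and 115 after adjustment. That change is more than the 1.5-fold limit. No smaller change was simulated, and the largest member difference in the main fit was 0.15. In the simulation 5.055% of unchanged genes had an unadjusted p under 0.05 (limma), against 2.39% of all genes in the main fit. The recovery therefore need not hold for these libraries. Alternatives were other scalings, filters, pseudocounts and variance models, the replicate block, sums over identifiers or with pseudogenes, and libraries left out.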

Additional observations from a re-analysis of the deposited data

How the results depend on the processing

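Over 18 alternative fits 0 members passed the study's limits and 15 member values changed sign, all in fits that left libraries out. Changes of filter, variance model or block leave a member's difference as it is, so they bear only on its test. Summing over identifiers could alter no member, since each has 1 identifier, and summing with pseudogenes altered only FTH1 and FTL. Without both replicate 3 libraries the sign changed for NCOA4 (-0.11), ACO1 (-0.046) and SLC25A37 (-0.020). With single libraries left out, the log2 difference ran from -0.25 to 0.12 for TFRC, -0.32 to 0.033 for FTH1, -0.15 to 0.056 for SLC40A1, -0.0089 to 0.084 for ACO1, -0.030 to 0.14 for SLC25A37 and -0.11 to 0.28 for NCOA4. It kept its sign but ran from 0.021 to 0.22 for IREB2, -0.33 to -0.017 for FTL and 0.014 to 0.20 for STEAP3, each nearest 0 without WT replicate 3 except FTL, without S34F replicate 1. The count of members with an unadjusted p under 0.05 was 0 to 2 with single libraries left out and 4 without both replicate 3 libraries, where 2 genes of the wider list, EPAS1 and LYRM4 (named after their values were seen), passed the study's limits, against 0 to 1 with single libraries left out (EPAS1, without S34F replicate 3). Over all genes, 64 passed these limits, 122 with a pseudocount of 0.1, 22 with a filter of 5 FPKM, which left 6 members tested, 186 without both replicate 3 libraries, 67 to 180 with single libraries left out (180 without S34F replicate 3) and 0 by adjusted p under 0.05. With the replicate block 87 genes passed and 0 members did. Genes with an unadjusted p under 0.05 (limma) went from 262 to 443 with the block, or 4.05% of all genes. Of the members 0 and of the wider list 3 were at that limit, as in the main fit. The causes of these shifts were not tested. FPKM carry no counts, so depth was only approximate, and the intervals rest on 3 libraries a group.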

Other observations

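Some genes of the wider iron list also split by replicate number, as values with no test. ALAS2, the erythroid enzyme that starts heme synthesis, had 332.6, 298.2 and 396.3 FPKM in S34F replicates 1, 2 and 3 and 297.4, 308.6 and 400.8 FPKM in WT. Both libraries numbered 3 were the highest, as for FTL and FTH1. FDXR, the reductase that feeds electrons to mitochondrial ferredoxins, went the other way, at 86.6, 87.8 and 47.7 FPKM in S34F and 84.3, 84.7 and 64.1 FPKM in WT. HMOX2, the constitutive heme oxygenase, had 10.4, 10.7 and 18.3 FPKM in S34F and 13.8, 11.1 and 14.8 FPKM in WT, highest in S34F replicate 3. BLVRB, a biliverdin reductase abundant in red cells, had 196.1, 191.1 and 173.5 FPKM in S34F and 154.0, 150.9 and 201.7 FPKM in WT, so the groups were apart in replicates 1 and 2 and in the opposite order in replicate 3.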
